A study of Homo sapiens with 24 samples.

Results

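Ribosome biogenesis factors are the proteins that transcribe ribosomal RNA, trim and modify it, and fold it with ribosomal proteins into subunits. The 48 genes described here were chosen by symbol, with earlier results of these data known, from the 22446 genes of the deposited expression table. All 48 were found and passed the filter on low values. They fall into 7 role classes: RNA polymerase I (5 genes), the small subunit processome (12), later small subunit assembly (7), box C/D small nucleolar ribonucleoproteins (3), box H/ACA small nucleolar ribonucleoproteins (4), large subunit assembly (11) and other nucleolar proteins (6). RNA came from A2780, an established human ovarian cancer line that the labels call epithelial. Cells were kept at normal oxygen (normoxia) or in a chamber at 1% oxygen (hypoxia) for 6 hr, 48 hr or 6 days, with 2 libraries in each of the 6 groups and no other treatment or genetic change named. Total RNA was depleted of ribosomal RNA and sequenced, and each gene's level is given as RPKM, its reads divided by transcript length in kilobases and by the library's total mapped reads, and so is relative to the other RNA of the library. The labels do not say if a group's 2 libraries are from different cultures, so p-values measure only the spread between these libraries, which may be technical.

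Ribosomes are built in the nucleolus. RNA polymerase I transcribes a long precursor, on which the processome and small nucleolar RNAs assemble to cut and modify the small subunit part, while other factors assemble the large subunit around the rest. The genes for these factors are classic targets of the transcription factor MYC, which binds as a dimer with MAX to the E-box, and their expression is known to follow cell growth. In low oxygen the HIF factors instead bind a shorter element that shares letters with the E-box.

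Some promoters of these genes hold the E-box, which the choice of genes did not use. The motif searched was CACGTG, which reads the same on both strands, in 300 bases of RefSeq sequence (GRCh38.p14, from 250 bases before to 50 after each start site). Of the 48 genes, 42 had a promoter in that table, and 19 of the 42 (45.2%) held an E-box. The share was 8.8% of all 27305 genes with a promoter, 13.4% of the 8034 tested genes that matched by symbol, and 26.5% of 98 other genes of the same pathway. In 18 of the 19 the motif lay within 50 bases of the start site, 42.86% of the members with a promoter against 3.51% of all genes with one. The following windows, 1 or more from 6 of the classes, show where it sits, with the E-box in capitals. The position of its first base is counted from 1 at the start site, with no position 0, and is negative before it. None of the 5 RNA polymerase I genes had an E-box in this window.
UTP20: tttttccgtcCACGTGacccactcag, at chr12:101280085-101280110 on the plus strand, position -10.
RRP9: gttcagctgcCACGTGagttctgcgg, at chr3:51941894-51941919 on the minus strand, position -5.
LTV1: cctggggctgCACGTGtggtgaggcc, at chr6:143843356-143843381 on the plus strand, position 29.
PNO1: tgcagctgcgCACGTGtttcagccgg, at chr2:68157887-68157912 on the plus strand, position 10.
FBL: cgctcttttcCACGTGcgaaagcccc, at chr19:39846358-39846383 on the minus strand, position 7.
GAR1: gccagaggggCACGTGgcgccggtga, at chr4:109815783-109815808 on the plus strand, position 32.
PES1: cttggcagggCACGTGcgggaggaag, at chr22:30591882-30591907 on the minus strand, position 14.
DDX21: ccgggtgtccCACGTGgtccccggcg, at chr10:68956606-68956631 on the plus strand, position -31.

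The bases around the motif differ between these windows, and its position ranges from -31 to 32. The shorter motif ACGTG, searched on both strands and counted only where it was not part of an E-box, was in 23.8% of the members with a promoter, against 18.2% of all genes with a promoter and 23.9% of the tested genes. A match describes these letters only and shows no binding.

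**Figure D1:**
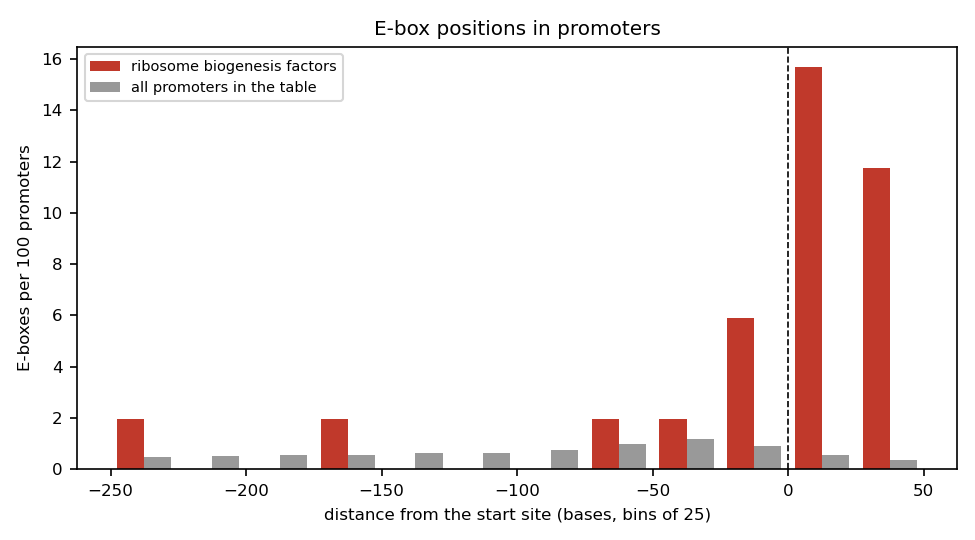
Number of E-boxes per 100 promoters (y axis) by distance from the start site in bins of 25 bases (x axis), for the ribosome biogenesis factors and for all promoters of the RefSeq table. The highest bars of the factors are those from 0 to 25 bases (15.7 per 100) and from 25 to 50 bases (11.8 per 100) after the start site, where all promoters have 0.547 and 0.342.

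Across the libraries the 48 genes were abundant at 6 and 48 hr and less so at 6 days. Their median level was 25.6 and 23.6 RPKM in the 2 normoxia libraries of 6 hr, 24.8 and 22.5 in hypoxia at 6 hr, 27.1 and 28.1 in normoxia at 48 hr, and 23.0 and 23.0 in hypoxia at 48 hr. At 6 days it was 11.7 and 12.3 RPKM in normoxia and 10.4 and 10.3 in hypoxia, below every earlier library. NPM1, an abundant nucleolar chaperone, had the highest mean. Its 2 libraries gave 541 and 438 RPKM in normoxia at 6 hr, 523 and 488 in hypoxia at 6 hr, 561 and 574 in normoxia at 48 hr, and 493 and 480.0 in hypoxia at 48 hr, then 346 and 370.0 in normoxia and 384 and 373 in hypoxia at 6 days. NPM1 has many processed pseudogenes, and how reads that match several places were counted is not given in the sources used here. RIOK1, a kinase of late small subunit maturation, had the lowest mean. It stood at 6.04 and 9.14 RPKM in normoxia and 6.10 and 6.89 in hypoxia at 6 hr, 7.98 and 8.19 against 5.92 and 6.17 at 48 hr, and 6.05 and 4.6 against 2.82 and 3.49 at 6 days.

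**Figure D2:**
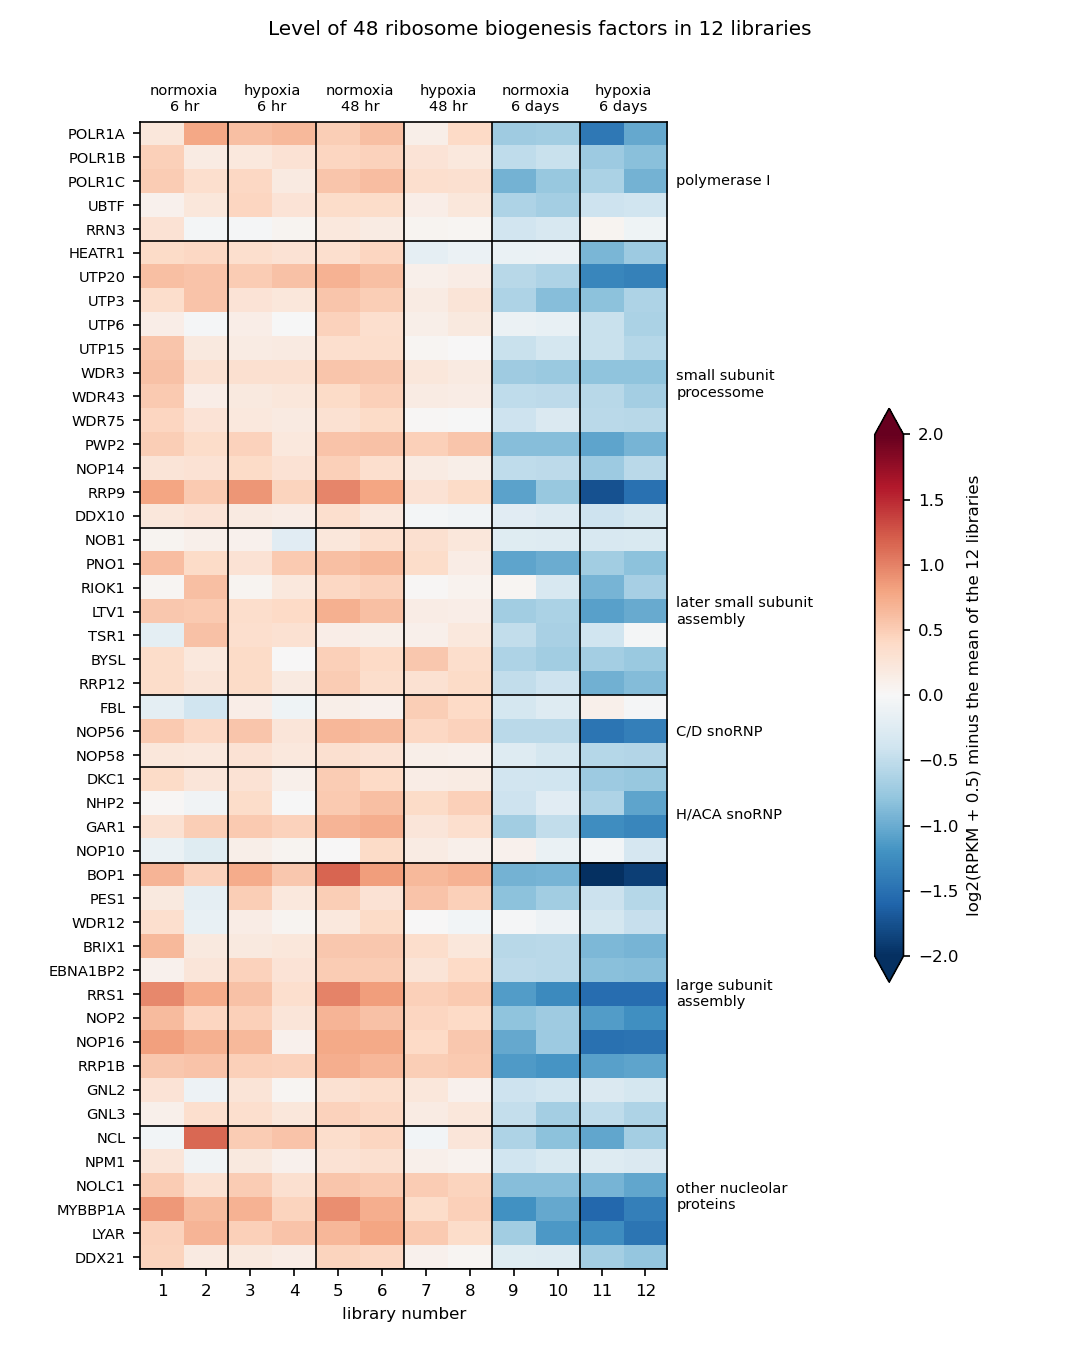
Level of each of the 48 genes (rows, grouped by role) in each of the 12 libraries (columns, grouped by oxygen and time), as log2(RPKM + 0.5) minus the gene's mean over the libraries. Most rows are red, above their mean, in libraries 1 to 8 and blue in libraries 9 to 12, while FBL, NOP10 and RRN3 show little of this pattern.

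Depth and other facts of the libraries bear on these values. The total reads behind a library, inferred from the precursor miRNA values of the same library, ranged from 25200000 to 51800000. Of 8 tested genes known to rise in hypoxia, 7, 8 and 8 rose at 6 hr, 48 hr and 6 days, so the oxygen labels hold. Of 6 epithelial markers 3 were below 1 RPKM in every library (CDH1, KRT19 and PAX8), as were all 6 leukocyte and all 5 endothelial markers. The summed level of 6 fibroblast markers was 28.4 and 23.4 RPKM in normoxia and 28.1 and 31.7 in hypoxia at 6 hr, 21.4 and 22.2 against 37.0 and 33.4 at 48 hr, and 28.8 and 29.5 against 42.7 and 39.7 at 6 days. Of the 3 that were tested, LUM and DCN rose at 48 hr and 6 days, and COL3A1 passed at neither time. Library 4 (hypoxia at 6 hr) stood apart in markers of other cells. It had COL1A1 at 2.5 RPKM (at most 0.78 elsewhere), COL1A2 at 3.06 (at most 0.12 elsewhere), LYZ at 0.98 (at most 0.12) and VWF at 0.18 (at most 0.04). The part of other cells in the results was not tested. The normoxia libraries of 6 hr, 1 and 2, stood furthest apart, with a median absolute difference of 0.21 (log2) over the 48 genes, against 0.07 to 0.11 in the other groups. NCL, the nucleolin gene, was the extreme, at 113 and 260.3 RPKM in these libraries.

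More of these genes fell over time in culture than with hypoxia at a given time. From 6 hr to 6 days in normoxia, 43 of the 48 genes fell and none rose, where 25.9% of all 11933 genes tested fell and 30.9% rose. A gene is said to have risen or fallen where limma's p, adjusted by Benjamini-Hochberg over all genes tested, was under 0.05. The median log2 fold change of the 48 was -0.80, against 0.04 for all genes tested. RRS1, a large subunit factor, fell by 2.05 ± 0.11 on the log2 scale (SE; adjusted p = 2.6e-07), from 18.0 and 15.3 RPKM to 3.86 and 3.41. MYBBP1A (a MYB-binding nucleolar protein), RRP1B and NOP16 (both of large subunit assembly) and RRP9 (a processome protein that binds the U3 small nucleolar RNA) fell by 1.86, 1.71, 1.64 and 1.57. The 5 that did not pass were UTP6 (-0.19), FBL (-0.01), NHP2 (-0.31), NOP10 (0.16) and WDR12 (-0.15). Between 6 and 48 hr in normoxia no member passed, where 0.00838% of genes rose and 0.0838% fell. In all, 9 members had an unadjusted p under 0.05, and the matching count over all genes is not given here. Without library 1, 7 members rose and 1 fell in that comparison.

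In hypoxia, 44 of the 48 genes fell between 6 hr and 6 days and none rose, where 29.8% of all genes fell and 35.1% rose. The median was -1.02, against 0.06 for all genes tested. BOP1, a scaffold of large subunit assembly, fell 6.01-fold, by 2.59 ± 0.12 on the log2 scale (adjusted p = 5.89e-08). RRP9 fell 4.86-fold and MYBBP1A 4.13-fold. The 4 that did not pass were RRN3 (-0.03), NOB1 (-0.25), FBL (0.01) and NOP10 (-0.28). Of 10 proliferation markers, 6 fell in normoxia and 6 in hypoxia over the same interval, and their part in the change of the 48 genes was not tested. In bulk RNA, fewer cells of a type and less RNA per cell cannot be told apart, and time, cell density and use of the medium cannot be told apart here either.

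**Figure D3:**
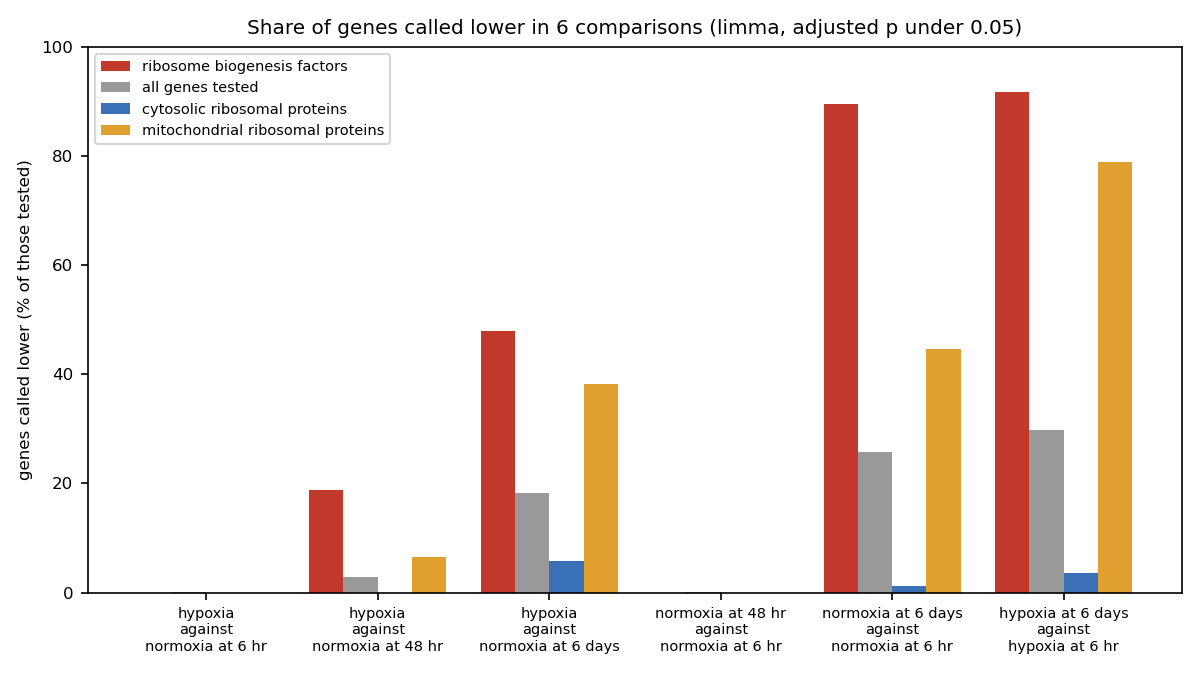
Share of genes called lower (y axis, percent of those tested) in 6 comparisons, for the 48 ribosome biogenesis factors, all genes tested, cytosolic ribosomal protein genes and mitochondrial ribosomal protein genes. The factors reach 89.6% in normoxia and 91.7% in hypoxia from 6 hr to 6 days, against 25.9% and 29.8% of all genes.

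Hypoxia against normoxia at the same time gave smaller median changes, with calls only at 48 hr and 6 days. At 6 hr no member passed in either direction, where 3.39% of all genes rose and 0.201% fell, and 4 members had an unadjusted p under 0.05. The values ran from -0.40 (NOP16) to 0.35 (PES1), with a median of -0.07 against 0.04 for all genes tested. Without library 4 the median was 0.01. At 48 hr 9 members fell and none rose, where 2.89% of all genes fell and 9.24% rose, and 25 members had an unadjusted p under 0.05. The median was -0.26, against 0.01 for all genes, and 44 of the 48 values were below 0. The fibroblast markers LUM (1.11) and DCN (0.54) rose at that time, and COL3A1 (-0.05) did not pass. Of 10 proliferation markers none passed and 4 had an unadjusted p under 0.05. The summed level of the proliferation markers was 496 and 502 RPKM in normoxia and 442 and 436 in hypoxia. The part of either set of markers was not tested. At 6 days 23 members fell and 3 rose, where 18.3% of all genes fell and 23.9% rose. The median was -0.23, against 0.04 for all genes, and 36 values were below 0. For all genes, the counts with an unadjusted p under 0.05 or a value below 0 are not given here at any time. At 6 days LUM (0.86) and DCN (0.32) were again higher, and COL3A1 (0.05) did not pass. Of the 10 proliferation markers, MCM6 (-0.56), PCNA (-0.46) and CCNB1 (-0.26) fell, BUB1 (0.40) rose and the others did not pass. Their summed level was 297 and 303 RPKM in normoxia and 283 and 283 in hypoxia. The part of these markers at 6 days was not tested either.

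The number called changed with the settings, and at 48 hr and 6 days it was smaller when any single library of the groups compared was left out. A group then rests on a lone library, so an ended call need not mark the library left out as unusual. At 48 hr, leaving out any of libraries 5, 6, 7 or 8 left 3 members lower. With libraries scaled by a trimmed mean, or with the 48 hr groups fitted alone, 20 were lower. At 6 days 11 to 13 were lower when library 9, 10, 11 or 12 was left out. HEATR1, LTV1 and UTP20 kept their call at 48 hr, and BOP1, DDX21, GAR1, HEATR1, LTV1, NOP56, RRP12 and UTP20 at 6 days, under all 12 alternatives tried. Of the 9 genes lower at 48 hr, 6 (66.7%) were also lower at 6 days, which is 26.1% of the 23. These were DDX21, GAR1, HEATR1, LTV1, RRS1 and UTP20. The 2 comparisons share no library, but they share each gene's estimate of the spread, so their calls are not independent. The same overlap was not counted over all genes.

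**Figure D4:**
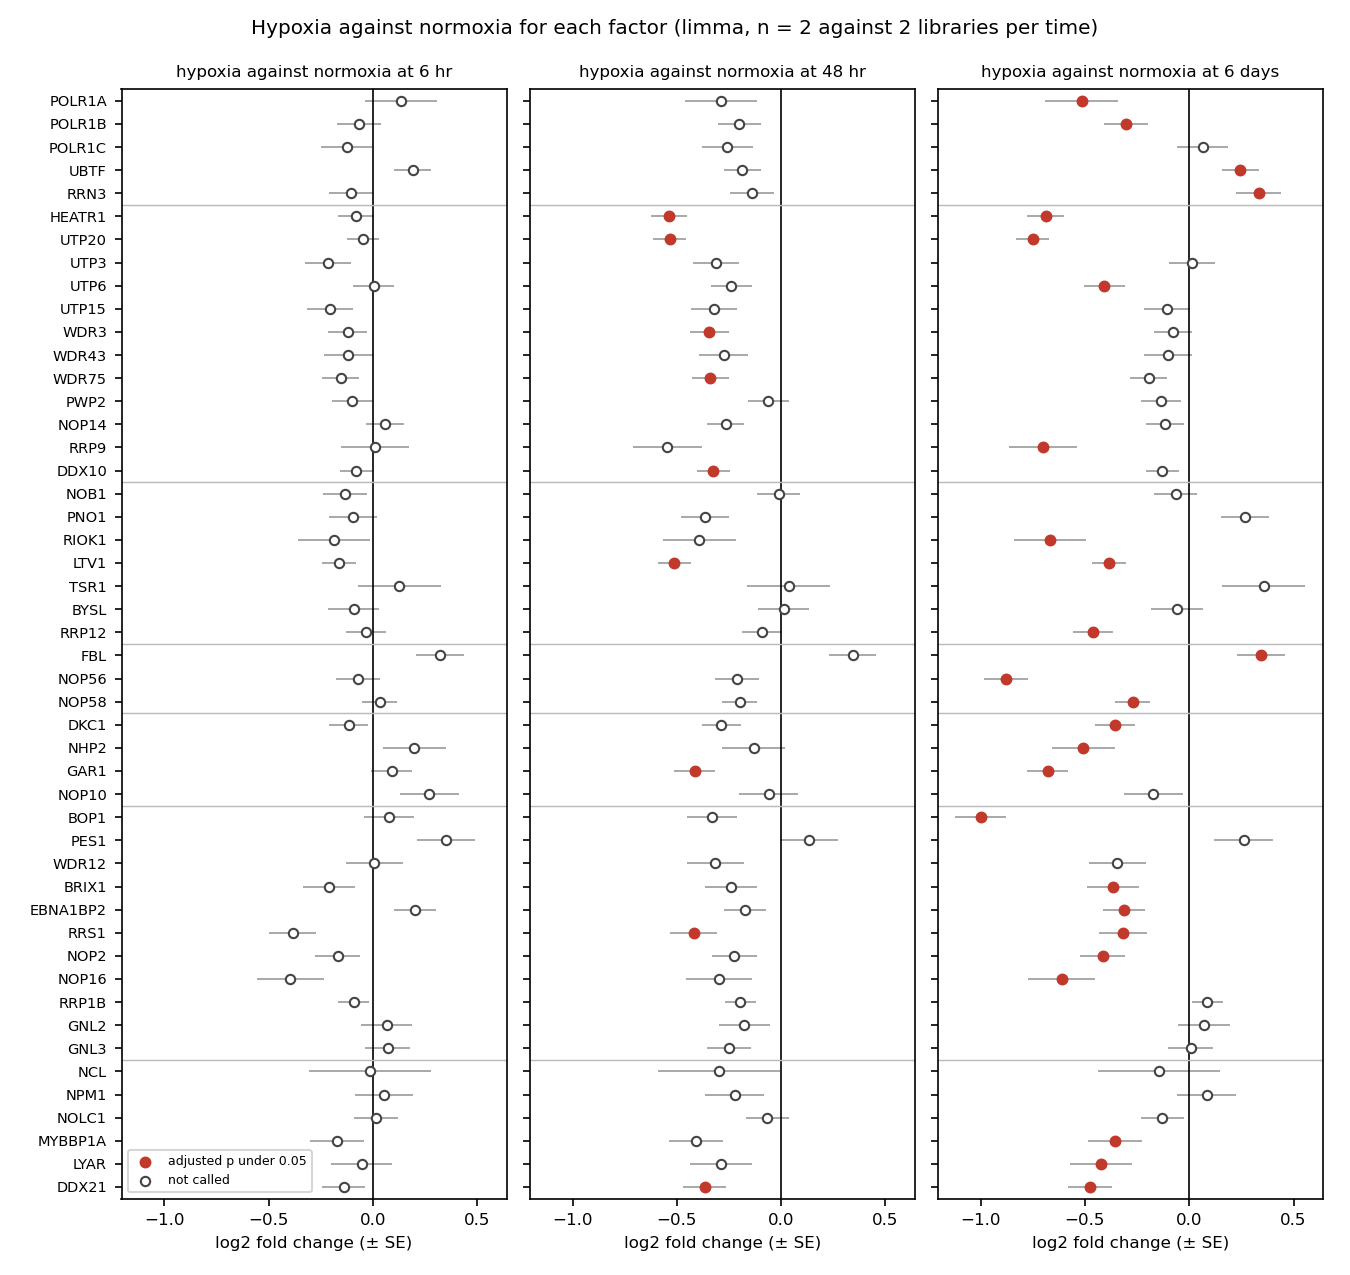
Log2 fold change of hypoxia against normoxia (x axis, bars are the SE) for each of the 48 genes (y axis, grouped by role) at 6 hr, 48 hr and 6 days. Filled points passed adjusted p under 0.05: 0 genes at 6 hr, 9 at 48 hr, all lower, and 26 at 6 days, of which 3 were higher.

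Of the RNA polymerase I genes, none passed at 48 hr, and 2 fell and 2 rose at 6 days. At 6 days 18.3% of all genes fell and 23.9% rose. POLR1A and POLR1B encode the 2 largest subunits of the enzyme. POLR1A stood at 8.69 and 12.9 RPKM in normoxia and 11.5 and 11.9 in hypoxia at 6 hr, 10.6 and 11.4 against 8.03 and 9.83 at 48 hr, and 4.30 and 4.33 against 2.42 and 3.38 at 6 days. Both hypoxia libraries were below both normoxia libraries at 48 hr and at 6 days, while at 6 hr the groups overlapped. POLR1A was 1.43-fold lower at 6 days (adjusted p = 0.0333) and POLR1B 1.23-fold lower (adjusted p = 0.0375). Leaving out single libraries ended both calls, with adjusted p up to 0.251 (without library 11) and 0.198 (without library 12).

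RRN3 and UBTF, initiation factors of the polymerase, went the other way. RRN3, which joins the enzyme to the promoter, was at 15.9 and 12.5 RPKM in normoxia and 12.8 and 13.4 in hypoxia at 6 hr, 15.1 and 14.5 against 13.5 and 13.3 at 48 hr, and 9.88 and 10.3 against 13.5 and 12.2 at 6 days. In hypoxia its level at 6 days overlapped that at 6 hr, while in normoxia it was lower at 6 days than in every earlier library. The hypoxia value at 6 days was 1.26-fold higher (adjusted p = 0.0275). UBTF, an architectural factor of ribosomal DNA, was at 12.7 and 14.0 RPKM against 16.2 and 14.4 at 6 hr, 15.5 and 15.4 against 13 and 14.0 at 48 hr, and 7.53 and 7.22 against 8.82 and 8.84 at 6 days. Hypoxia was higher at 6 hr and 6 days without overlap and lower at 48 hr. At 6 days UBTF was 1.18-fold higher (adjusted p = 0.0461). Over time in normoxia RRN3 fell by 0.47 and UBTF by 0.81 on the log2 scale, and the normoxia libraries of 6 days enter both comparisons. The call of RRN3 at 6 days ended without library 9, 10 or 11 (adjusted p up to 0.165, without library 11). That of UBTF ended without any of the 4 libraries and under both other scalings (adjusted p up to 0.189, without library 10). POLR1C, a subunit shared with RNA polymerase III, did not pass at 6 days (0.06).

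The small subunit processome held most of the genes lower at 48 hr, 5 of its 12, where 2.89% of all genes fell. UTP20, a large scaffold protein, had the lowest adjusted p of the 48 genes in hypoxia against normoxia at the same time. Its level was 15.1 and 14.8 RPKM in normoxia and 14.1 and 14.8 in hypoxia at 6 hr, 16.1 and 15.1 against 10.5 and 10.8 at 48 hr, and 6.49 and 6.21 against 3.64 and 3.50 at 6 days. The groups were close at 6 hr and did not overlap at 48 hr or 6 days. UTP20 was 1.45-fold lower at 48 hr (-0.53 ± 0.08, SE; adjusted p = 0.00106) and 1.68-fold lower at 6 days (-0.75 ± 0.08; adjusted p = 3.49e-05). HEATR1, another scaffold, which also acts in transcription by polymerase I, was 1.45-fold lower at 48 hr (adjusted p = 0.00198) and 1.61-fold lower at 6 days (adjusted p = 0.000122). It stood at 22.2 and 23.8 RPKM against 15.4 and 16.0 at 48 hr, and at 15.8 and 16.0 against 9.04 and 10.3 at 6 days, so the hypoxia libraries of 48 hr overlapped the normoxia libraries of 6 days.

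The WD-repeat proteins WDR3 and WDR75 and the helicase DDX10 were 1.27-fold, 1.27-fold and 1.25-fold lower at 48 hr. These 3 did not pass at 6 days, with -0.08, -0.19 and -0.13, where normoxia and hypoxia levels were both lower than at 48 hr. WDR3, for example, went from 29.7 and 29.5 RPKM against 23.5 and 22.9 at 48 hr to 12.04 and 11.8 against 11.2 and 11.3 at 6 days. Their calls at 48 hr ended when any of libraries 5 to 8 was left out (adjusted p up to 0.182, for WDR75 without library 6). At 6 days UTP6 and RRP9 also fell, 1.33-fold and 1.63-fold. RRP9 did not pass at 48 hr, with -0.54 and adjusted p = 0.0532. The call of UTP6 ended without library 12 (adjusted p = 0.0775) and that of RRP9 without library 10 or 11 (adjusted p up to 0.0580). UTP3, UTP15, WDR43, PWP2 and NOP14 passed in no hypoxia comparison. All 12 processome genes were below 0 at 48 hr, from -0.54 to -0.06, where the median of all genes tested was 0.01.

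Later small subunit assembly was mixed. LTV1, which must leave the subunit before it can translate, was at 17.3 and 17.0 RPKM in normoxia and 15.0 and 15.6 in hypoxia at 6 hr, 19.5 and 17.9 against 13.1 and 12.9 at 48 hr, and 7.06 and 7.38 against 5.23 and 5.60 at 6 days. Hypoxia was below normoxia without overlap at each time, and passed at 48 hr (1.43-fold lower, adjusted p = 0.00175) and at 6 days (1.31-fold lower, adjusted p = 0.00314). At 6 days RIOK1 was 1.59-fold lower (adjusted p = 0.0102) and RRP12, an export factor, 1.38-fold lower (adjusted p = 0.00306). The call of RIOK1 ended without library 9 or 11 (adjusted p up to 0.0955).

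PNO1, a partner of the nuclease NOB1, moved differently. Its level was 16.9 and 14.3 RPKM in normoxia and 13.4 and 15.8 in hypoxia at 6 hr, 16.8 and 17.3 against 14.2 and 12.1 at 48 hr, and 4.96 and 5.24 against 6.51 and 5.97 at 6 days. Hypoxia was below normoxia at 48 hr and above it at 6 days, both without overlap, yet neither value passed (-0.36, adjusted p = 0.0625, and 0.27, adjusted p = 0.0828). The difference between them did, as given further on. NOB1, TSR1 and BYSL passed in no hypoxia comparison.

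The box C/D proteins belong to particles that carry out 2'-O-methylation of ribosomal RNA. NOP56, a core protein of these particles, was at 65.6 and 61.1 RPKM in normoxia and 66.8 and 54.1 in hypoxia at 6 hr, 72.8 and 70.8 against 60.9 and 62.9 at 48 hr, and 31.2 and 31.2 against 16.2 and 17.3 at 6 days. At 6 days the hypoxia libraries were far below the normoxia libraries, 1.84-fold (-0.88 ± 0.11, SE; adjusted p = 9.11e-05). NOP58, its paralog in the same particle, was 1.21-fold lower at 6 days (adjusted p = 0.0225). The call of NOP58 ended without library 9, 10, 11 or 12 (adjusted p up to 0.151, without library 9).

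FBL encodes fibrillarin, the methyltransferase of the particle, and did not follow its partners. It was at 90.8 and 79.3 RPKM in normoxia and 115 and 98.2 in hypoxia at 6 hr, 113 and 111 against 147 and 137 at 48 hr, and 81.4 and 86.7 against 112 and 102 at 6 days. Hypoxia exceeded normoxia without overlap at each time. The values were close, at 0.32, 0.34 and 0.34, and only that of 6 days passed (1.27-fold higher, adjusted p = 0.0321, against 0.176 and 0.0768 at 6 and 48 hr). The call at 6 days ended without library 9, 10, 11 or 12 and under quantile normalization (adjusted p up to 0.187, without library 11). Over time FBL did not pass in normoxia or in hypoxia.

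The box H/ACA proteins belong to particles that carry out pseudouridylation, and 3 of the 4 genes fell at 6 days, where 18.3% of all genes fell. GAR1 was at 20.9 and 23.8 RPKM in normoxia and 24.3 and 23.2 in hypoxia at 6 hr, 27.1 and 28.1 against 19.9 and 21.3 at 48 hr, and 10.2 and 11.9 against 6.83 and 6.52 at 6 days. It was lower in hypoxia without overlap at 48 hr (1.33-fold, adjusted p = 0.0193) and at 6 days (1.60-fold, adjusted p = 0.00033). Without library 5, 6, 7 or 8 its call at 48 hr ended (adjusted p up to 0.162, without library 7). NHP2, a core protein, was 1.42-fold lower and DKC1, the pseudouridine synthase dyskerin, 1.28-fold lower at 6 days. Their calls ended without library 10 or 12, and that of DKC1 also without library 9 (adjusted p up to 0.188 for NHP2 and 0.0650 for DKC1, without library 12). NOP10, the smallest core protein, passed in none of the hypoxia comparisons and in neither comparison of 6 days with 6 hr, and its libraries lay between 46.1 and 76.3 RPKM.

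Large subunit assembly held 6 of the 23 genes lower at 6 days. BOP1, which forms a complex with PES1 and WDR12, had the largest hypoxia value of the 48 genes. Its level was 31.7 and 27.2 RPKM in normoxia and 33.2 and 28.9 in hypoxia at 6 hr, 44.8 and 35.7 against 31.3 and 32.1 at 48 hr, and 9.93 and 10.0 against 4.51 and 4.99 at 6 days. At 6 days it was 2.0-fold lower (-1.0 ± 0.12, SE; adjusted p = 9.6e-05). The partners did not pass: PES1 was at 20.2 and 22.2 RPKM in normoxia and 26.7 and 24.2 in hypoxia at 6 days (0.26, adjusted p = 0.158). WDR12 was at 19.3 and 18.2 against 15.3 and 14.1 RPKM (-0.34, adjusted p = 0.062). The difference between the 3 partners was not tested.

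Among the other large subunit genes, the values at 6 days were 1.53-fold lower for NOP16, 1.33-fold for NOP2 (a methyltransferase of the large ribosomal RNA), 1.29-fold for BRIX1, 1.25-fold for RRS1 and 1.24-fold for EBNA1BP2. RRS1 also passed at 48 hr, 1.34-fold lower (adjusted p = 0.0348). The calls of these 5 ended without single libraries among 9 to 12, with adjusted p up to 0.0967 for NOP16 (without library 10), 0.0759 for NOP2 (library 12), 0.130 for BRIX1 (library 12), 0.232 for RRS1 (library 9) and 0.117 for EBNA1BP2 (library 12). At 48 hr that of RRS1 reached 0.207 without library 5. At 6 days the call of RRS1 also ended with a pseudocount of 1, without a filter on low values and without the intensity trend. Without the filter, the call of BRIX1 at 6 days and that of RRS1 at 48 hr ended too. RRP1B, GNL2 and GNL3 passed in no hypoxia comparison and were at 0.09, 0.07 and 0.01 at 6 days.

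Of the other nucleolar proteins, DDX21, an RNA helicase, was at 91.8 and 75.6 RPKM in normoxia and 76.8 and 74.4 in hypoxia at 6 hr, 91.4 and 89.2 against 70.9 and 69.0 at 48 hr, and 56.7 and 55.9 against 41.7 and 39.1 at 6 days. It was lower without overlap at 48 hr (1.29-fold, adjusted p = 0.0424) and at 6 days (1.39-fold, adjusted p = 0.0039). At 48 hr its call ended without any of libraries 5 to 8 (adjusted p up to 0.202, without library 8). MYBBP1A and LYAR were 1.28-fold and 1.34-fold lower at 6 days. The call of MYBBP1A ended without library 9, 10, 11 or 12. It also ended with a pseudocount of 1, without a filter on low values and without the intensity trend. That of LYAR ended without library 9 or 12, without the filter and with only the groups compared. NCL, NPM1 and NOLC1 passed in no hypoxia comparison. NCL varied so much that its SE was 0.29, the largest of the 48 genes.

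**Figure D5:**
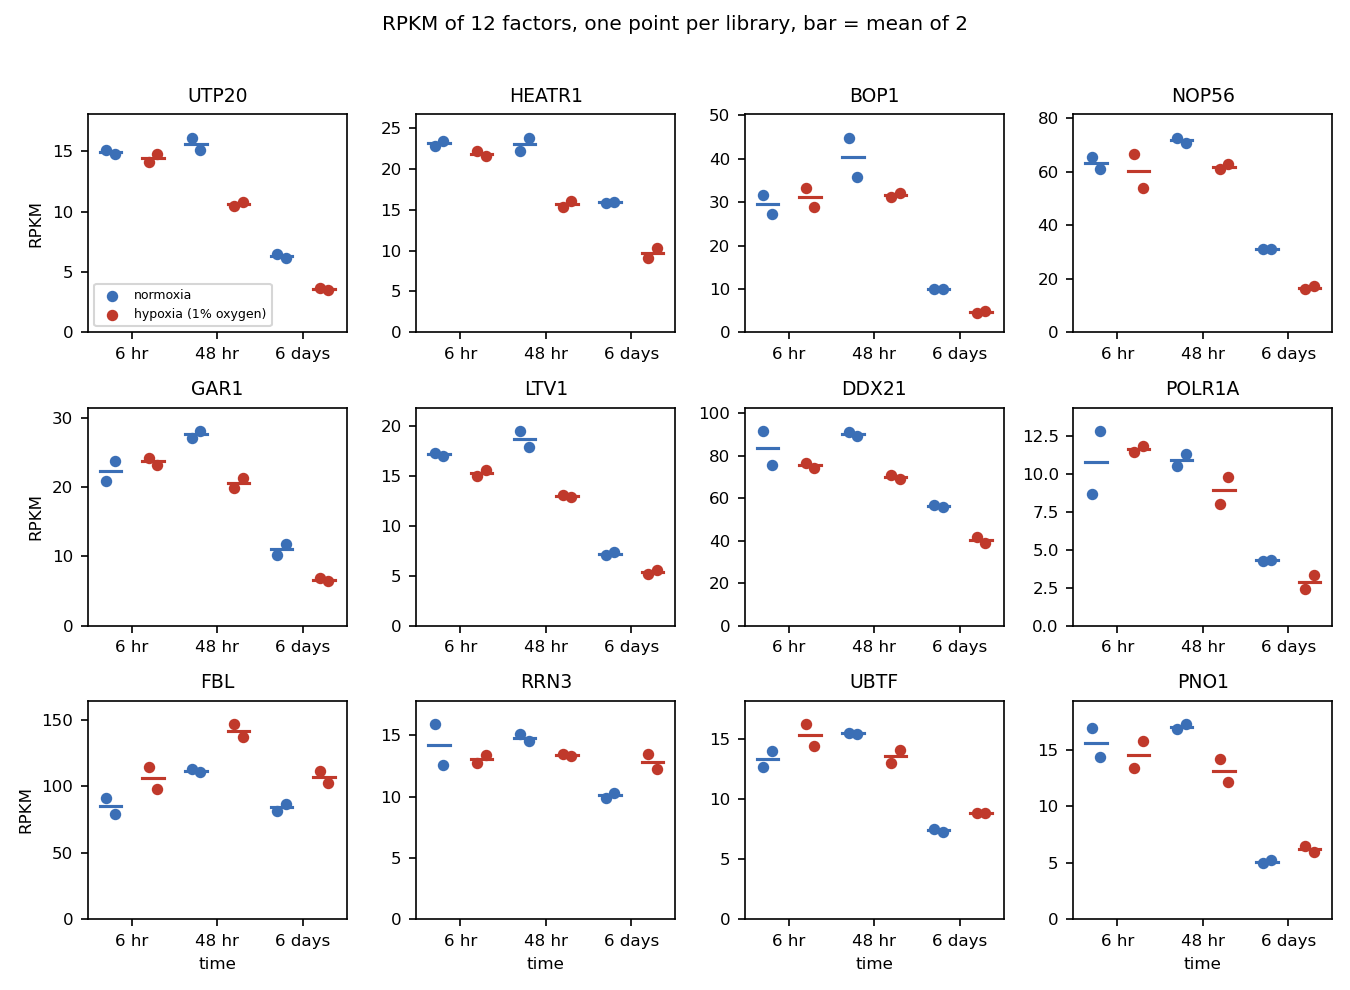
RPKM (y axis from 0) of 12 of the genes in each library at 6 hr, 48 hr and 6 days (x axis), with points for libraries and bars for the mean of 2. UTP20, HEATR1, BOP1, NOP56, GAR1, LTV1, DDX21 and POLR1A have hypoxia below normoxia at 48 hr and 6 days. FBL has hypoxia above normoxia at each time, and RRN3, UBTF and PNO1 have it below at 48 hr and above at 6 days.

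Whether the effect of hypoxia changed with time was tested directly. Between 6 and 48 hr no member passed, where 0.511% of all genes had a higher effect and 0.0168% a lower one, and 9 members had an unadjusted p under 0.05. Of the 48 values, 43 were below 0, with a median of -0.22 against -0.02 for all genes. The counts over all genes with an unadjusted p under 0.05 or a value below 0 are not given here. Between 48 hr and 6 days the effect became more negative for NOP56 and BOP1 and more positive for PNO1, where 5.31% and 5.38% of all genes passed in these directions. The difference was -0.66 ± 0.15 (SE; adjusted p = 0.0205) for NOP56, -0.67 ± 0.17 (adjusted p = 0.0326) for BOP1 and 0.63 ± 0.16 (adjusted p = 0.0325) for PNO1. When any of libraries 5 to 12 was left out, at most 1 member passed in either direction.

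Members with an E-box are set beside those without. From 6 hr to 6 days in normoxia, 17 of 19 genes with the motif fell, with a median of -0.94. Without it 20 of 23 fell, with a median of -0.77, where 25.9% of all genes fell. In hypoxia at 6 days 9 of 19 with it fell and 1 rose, with a median of -0.17. Without it 10 of 23 fell and 2 rose, with a median of -0.20, where 18.3% of all genes fell and 23.9% rose. At 48 hr 4 genes of either set fell in hypoxia, where 2.89% of all genes fell. MYC itself, which binds the E-box, was at 29.1 and 25.1 RPKM in normoxia and 27.6 and 25.9 in hypoxia at 6 hr, 26.3 and 29.1 against 35.3 and 33.1 at 48 hr, and 18.3 and 20.4 against 17.2 and 17.5 at 6 days. It did not pass in hypoxia at any time (0.30 at 48 hr, adjusted p = 0.0800) and fell by 0.47 from 6 hr to 6 days in normoxia (adjusted p = 0.00198). MXI1, a MAX partner that represses E-box genes and a known hypoxia gene, was at 1.71 and 1.30 RPKM in normoxia and 5.05 and 5.11 in hypoxia at 6 hr, 1.44 and 1.56 against 7.19 and 6.24 at 48 hr, and 6.67 and 7.21 against 29.8 and 27.5 at 6 days. It rose with hypoxia at each time (1.48, 1.85 and 1.97 on the log2 scale) and with time in normoxia (1.90). Of the 10 tested genes of the MYC network, 3 rose at 48 hr, the others being MXD1 (0.61) and MXD4 (1.02), where 9.24% of all genes rose. At 6 days MXI1 and MXD1 (0.84) rose and MLX fell (-0.38).

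Other genes of the pathway were taken from lists that are not exhaustive, and how they differ from the 48 was not tested. At 48 hr 2.89% of all genes fell and 9.24% rose, and at 6 days 18.3% fell and 23.9% rose. Of 34 other small subunit genes, 6 fell and none rose in hypoxia at 48 hr, and 13 fell and 4 rose at 6 days. RRP7A (-0.84), DIMT1L (-0.82) and EMG1 (-0.71) led the fall at 6 days, and NAT10, which acetylates the small ribosomal RNA, led the rise (0.35). Of 47 other large subunit genes, 4 fell at 48 hr, and 16 fell and 3 rose at 6 days, with GRWD1 (-0.75) and WDR18 (-0.73) at one end and DDX24 (0.83) at the other. Of 13 other polymerase I genes, 3 fell and 1 rose at 48 hr, and 4 fell and 3 rose at 6 days. They included the subunits ZNRD1 (-0.93) and POLR1E (-0.80), the initiation factor TAF1B (-0.82), and PTRF (0.91), which is also the caveolar protein cavin.

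Factors that assemble small nucleolar ribonucleoproteins or process RNA passed in part at 6 days, where 18.3% of all genes fell and 23.9% rose. Of 10 genes that assemble small nucleolar ribonucleoproteins, 4 fell and 1 rose at 6 days, with the ATPases RUVBL1 (-1.13) and RUVBL2 (-0.57) among the former and ZNHIT3 (0.68) as the latter. RUVBL1 went from 34.9 and 39.0 RPKM in normoxia to 15.6 and 17.8 in hypoxia. Of 14 exosome genes, which trim RNA from its 3' end, 5 fell and 1 rose at 6 days, led by EXOSC4 (-0.94) and by C1D (0.39). At 48 hr no gene of these 2 lists passed limma's test, 6 and 2 had an unadjusted p under 0.05, and with libraries scaled by a trimmed mean 3 and 2 fell. Of all genes 841 fell under that scaling, and the count with an unadjusted p under 0.05 is not given here.

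Ribosomal protein genes, whose products the factors assemble, gave other counts. Of 85 tested cytosolic ribosomal protein genes, 41 rose and 1 fell from 6 hr to 6 days in normoxia, with a median of 0.35. Of all genes tested 30.9% rose and 25.9% fell over that interval. Under quantile normalization and trimmed-mean scaling 46 and 43 rose. In hypoxia at 6 days 1 rose and 5 fell, where 23.9% of all genes rose and 18.3% fell. The median was 0.07, which turned to -0.17 with 18 lower under quantile normalization. These genes have many pseudogenes and short transcripts, and how shared reads were counted is not given in the sources used here. Of 76 mitochondrial ribosomal protein genes, 34 fell and 7 rose over time in normoxia, and 29 fell and 1 rose with hypoxia at 6 days.

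Several members carry small nucleolar RNAs in their introns. By position in RefSeq (GRCh38.p14), 20 of these RNAs in the table lie inside 7 of the genes: WDR43, NOP58, NCL, GNL3, TSR1, NOP56 and DKC1. In hypoxia at 6 days 11 of the 20 rose and 1 fell, with a median of 0.92, while 165 of all 336 tested small nucleolar RNAs rose and 1 fell, with a median of 0.74. Under quantile normalization 7 rose and 2 fell. SNORD82, inside NCL, was at 583 and 405 RPKM in normoxia and 1756 and 1089 in hypoxia at 6 days. SNORD11B, inside NOP58, was at 1126 and 1013 against 3308 and 2338 RPKM, while its host was 1.21-fold lower.

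NOP56 holds 5 of these RNAs, and they did not move alike. SNORD56 (0.95) and SNORD110 (0.83) rose at 6 days, SNORA51 (0.05) and SNORD57 (0.42) did not pass, and SNORD86 fell by 1.61 ± 0.28 (SE; adjusted p = 0.00103). SNORD86 was at 291 and 285 RPKM in normoxia and 303 and 199 in hypoxia at 6 hr, 501 and 265 against 299 and 375 at 48 hr, and 125 and 145 against 50.5 and 37.7 at 6 days. It was low at 6 days and lowest in hypoxia, the order also seen in NOP56 itself. How reads in an intron were split between a small nucleolar RNA and its host is not given in the sources used here. At 48 hr none of the 20 passed limma's test in either direction, and 0 had an unadjusted p under 0.05.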

How the data were processed

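Total RNA of A2780 cells was sequenced on a 5500xl in 12 libraries, per the labels. The authors deposited RPKM values per gene symbol and per precursor miRNA. The submitters' processing notes name Partek 6.6 and the build hg19, and the sources used here name no aligner or counting rule. Genes with at least 1 RPKM in at least 2 libraries (11933 of 22446) were tested with limma 3.58.1 (R 4.3.3), fitting 6 group means with an intensity trend to log2(RPKM + 0.5), and p-values were adjusted by Benjamini-Hochberg over all of them with a threshold of 0.05. Fold changes are on that scale and understate the change of low genes. The procedure was tested on simulated data. Depth was inferred from precursor values of 20 reads or fewer, which are whole multiples of what 1 read is worth at the hairpin's RefSeq length. With a tolerance of 0.05 reads, 96.5% to 99.3% of values came out whole. The gene table may rest on another total.

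The members, lists and tests were chosen with earlier results of these data known. All 48 members are accounted for. Values in every library are given for the member of each class with the lowest adjusted p in a hypoxia comparison, for members called higher in hypoxia or called in opposite directions in different comparisons, such as over time and with hypoxia (RRN3, UBTF) or over time and in the change of the hypoxia effect (PNO1), and for the highest and lowest mean. Of other lists, up to 3 called genes either way at 6 days are named. POLR1A, HEATR1, PES1, WDR12, WDR3, MYC, MXI1, RUVBL1 and the small nucleolar RNAs shown by library were added after their values were seen. Alternatives were other pseudocounts (0.1 and 1), filters (none and 5 RPKM), quantile and trimmed-mean scaling, no trend, only the groups compared, and each library left out, where the lone library is assumed to vary like the other groups. Of 219 listed genes 13 were matched by an older symbol. Promoters and small nucleolar RNA positions are RefSeq's, on a build other than the authors', and were joined by symbol. Sequences and plots used Python 3.11.15.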

Additional observations from a re-analysis of the deposited data

Results flagged for a closer look

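A group of 3 genes differed between times in their response to hypoxia, by the test of that difference in the fit over all genes. Over all genes 5.31% passed with a lower and 5.38% with a higher effect, so 2 and 1 of 48 is no larger a share. When any of libraries 5 to 12 was left out, at most 1 member passed in either direction. For BOP1 the log2 effect at 6 days minus that at 48 hr was -0.67, for NOP56 -0.66 and for PNO1 0.63. The 48 hr and 6 day effects were -0.33 and -1.0 for BOP1, -0.21 and -0.88 for NOP56 and -0.36 and 0.27 for PNO1. All 3 were also lower at 6 days in normoxia than in any library of 6 or 48 hr, at 9.93 to 10.0, 31.2 and 4.96 to 5.24 RPKM.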

How the results depend on the processing

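No paired analysis was possible because the oxygen and time groups share no library number, and the shared numbers only join the gene and precursor values of the same library. No member called in a hypoxia comparison reversed its direction under these alternatives. Without a filter on low values, the calls of POLR1A, POLR1B, RRN3 and NHP2 at 6 days and of DDX21 at 48 hr also ended. That of UBTF at 6 days also ended without the intensity trend. At 6 hr, 1 member was lower in hypoxia under quantile and trimmed-mean scaling, and with a library left out 0 to 1 were higher and 0 to 1 lower. At 48 hr, 1 member was higher under quantile normalization, trimmed-mean scaling and the fit of only the groups compared, and the last 2 settings gave 20 lower. With a library left out 3 were lower. At 6 days 1 was higher under quantile normalization, 0 to 1 with a library left out, and 11 to 13 were then lower. The members' median at 6 days was -0.32 under quantile normalization, and that at 6 hr ran from -0.10 to 0.0054 with a library left out. The change of effect from 48 hr to 6 days was higher for 2 members at 5 RPKM or under quantile normalization and for 3 under trimmed-mean scaling or with only these groups, and lower for 1 without a filter. With a library left out it was higher for 0 to 1 and lower for 0 to 1. In normoxia at 48 hr against 6 hr, 0 to 7 were then higher and 0 to 1 lower. With 48 hr as the earlier time, a setting chosen after seeing the data, 47 members fell by 6 days in normoxia and 45 in hypoxia. For all genes, higher calls made up 94.4%, 76.2% and 56.6% of calls in hypoxia at 6 hr, 48 hr and 6 days, against 76.1%, 57.9% and 45.3% under quantile normalization and 76.2%, 56.6% and 49.2% under trimmed-mean scaling. The cause was not tested. With 2 libraries a group, small changes of low genes may not be detectable.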
